A study of Mus musculus with 8 samples.

Results

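The data describe 10 genes of distal sodium and potassium transport in the kidney, *Slc12a1*, *Slc12a3*, *Scnn1a*, *Scnn1b*, *Scnn1g*, *Kcnj1*, *Wnk1*, *Wnk4*, *Klhl3*, and *Sgk1*, which were taken by name from the 55367 genes of the deposited count table. RNA-Seq libraries came from whole kidneys of 4 *c-Maf* ΔTAM animals, called mutant mice, and of 4 *c-Maf fl/fl* animals, called control mice, of the C57BL/6J strain, given as 8 weeks old. Both groups carried floxed *c-Maf* alleles on both chromosomes, and both received tamoxifen (TAM). Only the mutant mice carried the *CAG-Cre-ER* TM transgene, whose ubiquitous promoter drives a TAM-dependent Cre recombinase; *c-Maf* was thus targeted in all cell types and not in the tubule alone. The control mice had no Cre, so effects of Cre itself cannot be told apart from loss of *c-Maf*. Each mouse was 1 replicate. Totals were 22990257, 18896014, 17188052, and 16649129 counts in mutant mice 1 to 4, and 18696580, 20890209, 20371115, and 19897769 counts in control mice 1 to 4.

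Sodium that escapes the proximal tubule is reabsorbed along the distal nephron in a fixed order of entry pathways. The Na-K-2Cl cotransporter NKCC2 (*Slc12a1*) works in the thick ascending limb, the thiazide-sensitive Na-Cl cotransporter NCC (*Slc12a3*) in the distal convoluted tubule, and the epithelial sodium channel ENaC in the connecting tubule and collecting duct. ROMK (*Kcnj1*) lets potassium leave the cell into the tubular fluid. WNK kinases (*Wnk1*, *Wnk4*) switch the cotransporters on through the kinases SPAK and OSR1, KLHL3 (*Klhl3*) marks WNK kinases for degradation together with cullin 3, and the aldosterone-induced kinase SGK1 (*Sgk1*) keeps ENaC at the cell surface. In whole kidney, fewer cells of a type and less RNA per cell cannot be told apart.

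The targeted gene, on chromosome 8 (115682942 to 115707794, minus strand of GRCm38), was low in every mutant mouse. *Maf* was at 9.06, 34.5, 29.6, and 10.1 CPM (counts relative to the library total, scaled by the TMM method) in mutant mice 1 to 4, and at 379.9, 342, 305, and 351 CPM in control mice 1 to 4. Its log2 fold change, mutant relative to control as in all that follow, was -4.05 (SE 0.512, adjusted *P* = 0.0115, edgeR quasi-likelihood test with Benjamini-Hochberg adjustment). The genotypes did not overlap. Of the exonic bases of *Maf*, 5.34% are shared with *Gm15655* on the opposite strand, whose reads cannot be told apart from those of *Maf* there. With the replicate number as a block, *Maf* had a log2 fold change of -4.28 (adjusted *P* = 0.0516, edgeR), and among the 5 mice with high *Xist* described next it was -3.87 (adjusted *P* = 0.108, edgeR).

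The libraries differed in a way the genotypes do not explain. *Xist*, an RNA made from the inactive X chromosome of females, had 2 counts in mutant mouse 1, and 6 and 22 counts in control mice 3 and 4, and between 17618 and 22387 counts elsewhere. The 4 Y-linked genes *Ddx3y*, *Eif2s3y*, *Kdm5d*, and *Uty* summed to 2812, 2886, and 2293 counts in those 3 mice and to between 3 and 12 counts in the other 5. The labels give no sex. By these RNAs, those 3 mice (1 mutant and 2 control) were male, and the other 5 (3 mutant and 2 control) were female. The sexes were thus not balanced between genotypes. Mitochondrially encoded and ribosomal RNA genes took 32.3% of the counts in mutant mouse 1 and between 17.1% and 25.5% in the other mice.

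None of the 10 genes passed the test between genotypes. All 10 passed the filter on low counts, and 0 were called higher and 0 lower at an adjusted *P* under 0.05, against 2.16% of the 20149 genes tested (436 genes). At an unadjusted *P* under 0.05, the count was also 0 of 10 in edgeR's quasi-likelihood test, against 14% of all genes tested (2825 genes). Of the 20 alternatives, 9 put *Wnk1* under that unadjusted value with a positive difference, among them DESeq2, limma on quantile-normalized values, and *Xist* level as a covariate (1 of 10, against 20.8% of all genes in that fit), whereas edgeR's exact test put 0 of the 10 there. Without mutant mouse 1, *Scnn1a* joined *Wnk1*, also with a positive difference, making 2 of 10 against 13.9% of all genes in that fit. In the 5 mice with high *Xist* it was 3 of 10 (*Scnn1b*, *Scnn1g*, and *Sgk1*, all with negative differences), against 15.1% of all genes in that fit (3177 genes). After adjustment, each of the 20 alternatives called 0 of the 10. In 0 of the 10 genes did the values of one genotype lie apart from those of the other, against 9.79% of the genes tested. The median log2 fold change of the 10 genes was 0.05, with 8 values above zero and 2 below, and that of all tested genes was 0.0027. With *Xist* level as a covariate, the log2 fold changes of all but *Scnn1a* and *Wnk1* were negative, so the signs of these small differences depended on that term.

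*Slc12a1*, the target of loop diuretics, spans bases 125152505 to 125230002 of chromosome 2 (plus strand) of GRCm38, and its counted exons share no base with another gene. Its level was 1269.8, 1834, 1679, and 1838 CPM in mutant mice 1 to 4, and 1856, 1678, 1498, and 1404 CPM in control mice 1 to 4. The genotypes overlapped over most of their range, and mutant mouse 1 was the lowest of the 8. The means were 1655 ± 267 CPM and 1609 ± 200.3 CPM (SD, n = 4), with a log2 fold change of 0.04 (SE 0.135, adjusted *P* = 0.932, edgeR). The 95% interval ran from 0.838-fold to 1.26-fold.

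*Slc12a3*, the cotransporter blocked by thiazides, spans bases 94329201 to 94366214 of chromosome 8 (plus strand). It stood at 964, 1294, 1508, and 1282 CPM in mutant mice 1 to 4, and at 1356, 1607, 974, and 946 CPM in control mice 1 to 4. The control mice fell into a high pair and a low pair, and the mutant values lay between their extremes. The log2 fold change was 0.05 (SE 0.188, adjusted *P* = 0.942, edgeR), and the 95% interval ran from 0.776-fold to 1.38-fold. Within a mouse, the log2 ratio of *Slc12a3* to *Slc12a1* counts was -0.39 ± 0.168 in mutant and -0.43 ± 0.252 in control mice (SD, n = 4; *P* = 0.771, two-sided exact permutation test). Of the 9 such ratios compared, none passed an adjusted *P* of 0.05, and the smallest *P* the 70 assignments of the mice allow is 0.0286.

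ENaC is built from 3 subunits, and α (*Scnn1a*) is needed for β (*Scnn1b*) and γ (*Scnn1g*) to form a working channel. *Scnn1a* (chromosome 6, 125320659 to 125344943, plus strand) was at 135, 204, 205, and 151 CPM in mutant mice 1 to 4, and at 152, 163, 154, and 148 CPM in control mice 1 to 4. *Scnn1b* (chromosome 7, 121865038 to 121918514, plus strand) was at 40.5, 52.1, 47.5, and 50.1 CPM in mutant mice, and at 58.2, 55.9, 35.6, and 40.8 CPM in control mice. *Scnn1g*, its neighbor on the same chromosome (121734479 to 121768475, plus strand), was at 46.3, 55.4, 49.4, and 53.7 CPM in mutant mice, and at 60.1, 60.3, 43.6, and 37.7 CPM in control mice. The 2 neighbors shared a pattern, high in control mice 1 and 2 and low in 3 and 4, whereas *Scnn1a* was nearly level over the control mice and highest in mutant mice 2 and 3. The genotypes overlapped for each subunit. The log2 fold change was 0.17 (SE 0.131, adjusted *P* = 0.619) for *Scnn1a*, -0.0036 (SE 0.154, adjusted *P* = 0.995) for *Scnn1b*, and 0.02 (SE 0.146, adjusted *P* = 0.97) for *Scnn1g* in edgeR's test. With 1 mouse left out, that of *Scnn1a* ranged from 0.08 (without mutant mouse 3) to 0.28 (without mutant mouse 1). Among the 5 mice with high *Xist*, the sign of the *Scnn1b* and *Scnn1g* differences was negative, -0.19 for each, with adjusted *P* values of 0.304 and 0.323 (edgeR). Per kb of exon, *Scnn1a* made up 54.1 ± 4.28% of the summed subunit level in mutant and 52.1 ± 5.2% in control mice (SD, n = 4). The shares of *Scnn1b* were 23.5% and 24.8%, and those of *Scnn1g* 22.4% and 23.1%, in the same order. The differences between genotypes were smaller than the SD of either genotype.

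*Kcnj1*, the apical potassium channel of the thick limb and the later segments, spans bases 32372493 to 32399197 of chromosome 9 (plus strand). It was at 164, 242, 239.7, and 198 CPM in mutant mice 1 to 4, and at 211, 245, 173, and 175 CPM in control mice 1 to 4. The highest and lowest values of the genotypes were close to each other. The log2 fold change was 0.07 (SE 0.147, adjusted *P* = 0.883, edgeR), with a 95% interval from 0.839-fold to 1.31-fold.

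*Wnk1* had the smallest *P* of the 10 genes. Its locus on chromosome 6 (119923969 to 120038672, minus strand) also makes a short kidney-specific form that lacks most of the kinase domain, and counts per gene name add the 2 forms together. *Wnk1* was at 920.4, 1003, 1057, and 874 CPM in mutant mice 1 to 4, and at 858, 938, 755, and 752 CPM in control mice 1 to 4. Only control mouse 2 lay above any mutant mouse. The means were 964 ± 81.9 CPM and 826 ± 89.4 CPM (SD, n = 4), and the log2 fold change was 0.22 (SE 0.105, unadjusted *P* = 0.0566, adjusted *P* = 0.375, edgeR). The 95% interval ran from 0.995-fold to 1.37-fold. The log2 fold change was 0.38 with limma on quantile-normalized values and 0.12 in the mice with high *Xist*.

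*Wnk4* (chromosome 11, 101260567 to 101277409, plus strand) was at 181, 222, 224, and 205 CPM in mutant mice 1 to 4, and at 219, 221, 191, and 178 CPM in control mice 1 to 4. The genotypes covered nearly the same range, with a log2 fold change of 0.04 (SE 0.103, adjusted *P* = 0.896, edgeR). Of its exonic bases, 7.38% are shared with *Gm11615* on the opposite strand, and because the counts do not use strand, reads from those bases cannot be told apart by gene. The log2 ratio of *Wnk4* to *Wnk1* counts was -2.34, -2.17, -2.24, and -2.09 in mutant mice 1 to 4, and -1.97, -2.09, -1.98, and -2.08 in control mice 1 to 4. All 4 mutant ratios were below all 4 control ratios, by a narrow margin between mutant mouse 4 and control mouse 2. The mean difference was -0.18 (*P* = 0.0286, exact permutation test, the smallest the design allows; adjusted *P* = 0.129 over the 9 ratios), so it did not pass the adjusted threshold.

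*Klhl3* (chromosome 13, 58000228 to 58113592, minus strand), the adaptor between WNK kinases and cullin 3, was at 105, 136.3, 130.1, and 114 CPM in mutant mice 1 to 4, and at 125, 137, 107, and 98.2 CPM in control mice 1 to 4. Its genotypes overlapped too, with a log2 fold change of 0.05 (SE 0.121, adjusted *P* = 0.887, edgeR).

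On the log2 scale, *Sgk1* had the widest spread of the 10 genes. The gene spans bases 21882184 to 21999903 of chromosome 10 (plus strand), and was at 64.6, 129, 117, and 203 CPM in mutant mice 1 to 4, and at 257, 266, 98.0, and 58.8 CPM in control mice 1 to 4. Both the highest and the lowest mouse were control. The log2 fold change was -0.40 (SE 0.587, adjusted *P* = 0.823, edgeR), and the 95% interval, from 0.284-fold to 2.01-fold, included large differences in either direction. With 1 mouse left out, the log2 fold change ranged from -0.71 (without mutant mouse 4) to -0.10 (without control mouse 2). In the 5 mice with high *Xist* only, *Sgk1* had a log2 fold change of -0.80 (adjusted *P* = 0.322, edgeR), and with the mitochondrial and ribosomal share as a covariate, chosen after seeing the data, one of 0.18 (adjusted *P* = 0.886, edgeR).

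**Figure D1:**
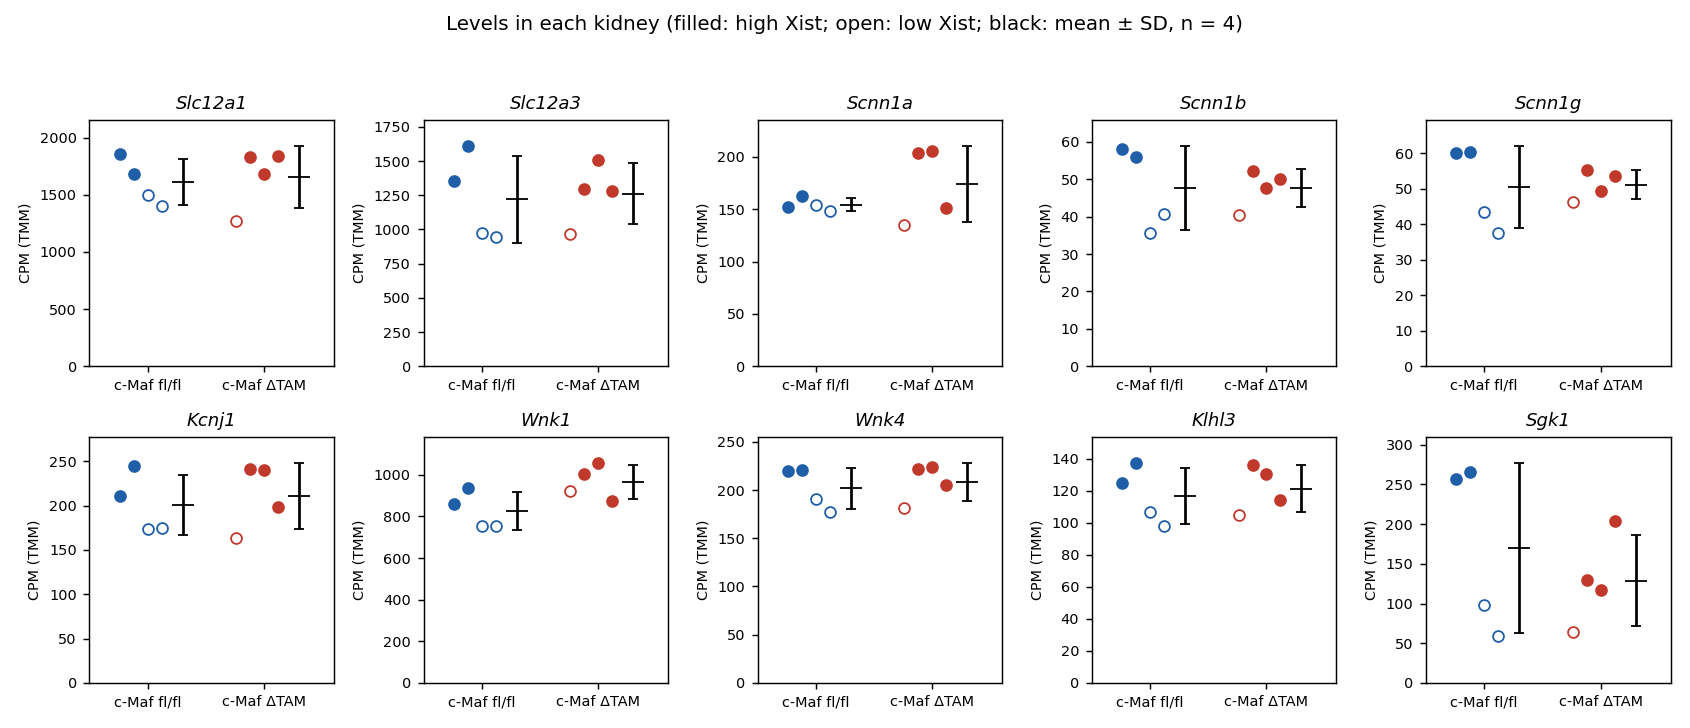
Level of each of the 10 genes in each kidney, in CPM scaled by the TMM method, for 4 control mice (blue, mice 1 to 4 from left to right) and 4 mutant mice (red, likewise); open circles are the 3 mice with low *Xist*, and black bars are the mean ± SD. The genotypes overlap in every panel, and in 8 of the 10 panels the open circles lie below all filled ones.

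The mice with low and high *Xist* stood apart in most of these genes. In 8 of the 10 genes, all but *Scnn1a* and *Wnk1*, each of the 3 mice with low *Xist* lay below each of the 5 mice with high *Xist*, which held for 6.85% of the 20149 genes tested. The reverse order was seen in 0 of the 10 genes and in 7.43% of the tested genes. The split was not particular to the 10 genes. Of the 41 tested genes of the other pathway lists, 13 had the low mice below and 4 above, and it held for 3 of the 4 other distal carriers and for all 5 podocyte markers, which summed to 371, 398, and 398 CPM in the 3 low mice and to between 472 and 512 CPM in the other 5. It held for 0 of 6 proximal tubule, 0 of 5 connecting tubule, 0 of 5 endothelial, and 0 of 5 macrophage markers. Among the other distal markers, it held for 2 of 7 thick limb, 1 of 3 macula densa, and 1 of 3 distal convoluted tubule genes. The counts were 1 of 5 for principal cell and 1 of 4 for intercalated cell markers. Of the 8 WNK cascade partners 0 had the split, and of the 7 other SLC12 cotransporters 1 had it and 2 had the reverse order. The reverse order was also seen in 1 of the 6 proximal tubule markers. Within control mice, the 2 with low *Xist* differed from the 2 with high *Xist* by a median log2 difference of -0.37 over the 10 genes, against -0.0016 over all tested genes. Within mutant mice, the median difference of the 1 mouse with low *Xist* from the other 3 was -0.38, against -0.019 over all tested genes. All 10 genes had a negative difference in both genotypes. *Slc12a3* had a log2 difference of -0.63 in control mice and -0.50 in mutant mice, and *Sgk1* -1.74 and -1.22. These are descriptions of 3 and 5 mice chosen by their *Xist* counts, with no test. Of these 3, mutant mouse 1 and control mouse 4 also had the highest mitochondrial and ribosomal shares of all 8, 32.3% and 25.5%, whereas control mouse 3 was at 18.7%. The injury marker *Havcr1* was highest in the same 3 mice, as given with the markers. The part of sex, of that share, or of *Havcr1* in the pattern was not tested. When *Xist* level was a covariate, 7.15% of the tested genes were called between genotypes, and among the 5 mice with high *Xist* 3.75%, but in both fits 0 of the 10 genes were called.

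**Figure D2:**
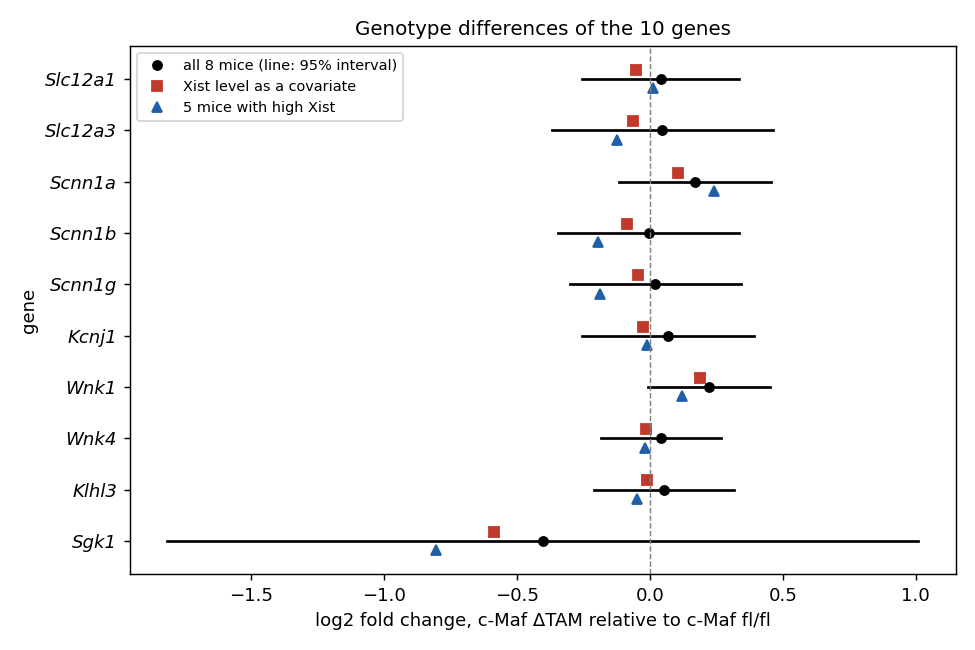
Log2 fold change of each of the 10 genes in mutant relative to control kidneys: black circles with 95% intervals are from all 8 mice, red squares from the fit with *Xist* level as a covariate, and blue triangles from the 5 mice with high *Xist*. Every 95% interval includes zero, and that of *Sgk1* is the widest, from -1.82 to 1.01.

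Per kb of exon, the order of the mean levels over the 8 mice was *Slc12a1*, *Slc12a3*, *Kcnj1*, *Wnk4*, *Scnn1a*, *Wnk1*, *Sgk1*, *Scnn1b*, *Scnn1g*, and *Klhl3*. *Slc12a1* was at 283 ± 38.2 CPM per kb and *Slc12a3* at 112 ± 22.996 CPM per kb (SD over 8 mice), and the lowest *Slc12a1* value (220.3) was above the highest *Slc12a3* value (144). *Slc12a3* in turn lay above *Kcnj1* (61.8 ± 10.03 CPM per kb) in every mouse, with the lowest *Slc12a3* value at 85.1 and the highest *Kcnj1* value at 73.5 CPM per kb. From *Kcnj1* down, neighbors in the order overlapped in their ranges over the 8 mice, but within each mouse *Kcnj1* lay above *Wnk4* and *Wnk4* above *Scnn1a* in 8 of 8. The later neighbors kept their order in 4 to 6 of the 8 mice. *Scnn1a* (39.7 CPM per kb) and *Wnk1* (39.2 CPM per kb) did not differ beyond their spread, nor did *Scnn1b* (18.1 CPM per kb), *Scnn1g* (17.0 CPM per kb), and *Klhl3* (16.3 CPM per kb). These levels rest on the summed length of all annotated exons, which is longer than any single transcript for genes such as *Wnk1* (22825 bases). The separate ranges of *Slc12a1* (5763 bases) and *Slc12a3* (11119 bases) depended on these lengths. Before division by length their CPM ranges overlapped. Within each mouse *Slc12a3* still had fewer counts, with log2 ratios to *Slc12a1* from -0.62 (control mouse 3) to -0.06 (control mouse 2).

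The genes with the most similar pattern over the 8 mice were sought among 9749 genes of at least 10 CPM, by the root mean square difference in log2 CPM after each gene was centered on its own mean. The closest genes were *Tcf21* and *Adcy6* for *Slc12a1*, *Emp1* and *Kcnj10* for *Slc12a3*, *Myo10* and *Nfatc2* for *Scnn1a*, *Pard3b* and *Lurap1* for *Scnn1b*, *Nbea* and *Rrm1* for *Scnn1g*, and *Kcnj10* and *Smim24* for *Kcnj1*. For the regulators they were *Metap1d* and *Itga1* for *Wnk1*, *Podxl* and *Spata13* for *Wnk4*, *Wdr72* and *Nicn1* for *Klhl3*, and *Id1* and *Abcc4* for *Sgk1*. The difference from the closest gene was 0.041 for *Slc12a1* and 0.066 for *Slc12a3*, but 0.25 for *Sgk1*, whose own SD over the mice was 0.79 on the same scale. *Kcnj10*, named for both *Slc12a3* and *Kcnj1*, encodes a basolateral potassium channel subunit of the distal tubule, whereas *Podxl*, named for *Wnk4*, is a podocyte marker. Every gene has a closest gene in such a search, and the likeness was not tested. *Kcnj10* also had the *Xist* split, at 74.5, 79.5, and 75.1 CPM in the mice with low *Xist* and 93.6 to 118.8 CPM in the others.

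Among 43 further genes of the pathway in 6 lists, 41 passed the filter on low counts, of which 0 were called higher and 1 was called lower in mutant mice (5 had an unadjusted *P* under 0.05). These are 2.44% called, against 2.16% of all genes tested, and 12.2% with an unadjusted *P* under 0.05, against 14%, so both shares were near those over all genes. The one called was *Kcnj16* (chromosome 11, 110968033 to 111027968, plus strand), in the list of basolateral exit genes. It encodes Kir5.1, which pairs with Kir4.1 (*Kcnj10*) in the basolateral potassium channel of the distal tubule and is made in the proximal tubule as well. *Kcnj16* was at 387, 376, 384, and 298 CPM in mutant mice 1 to 4, and at 505, 537, 632, and 572 CPM in control mice 1 to 4. All mutant mice were below all control mice, and *Kcnj16* fell by 0.64 on the log2 scale (SE 0.11, adjusted *P* = 0.0103, edgeR). In the 5 mice with high *Xist* only, it was -0.57 on that scale (adjusted *P* = 0.00557), and with the replicate number as a block it was -0.64 (adjusted *P* = 0.108). Its partner *Kcnj10* was at 99.8 ± 19.9 CPM and 93.6 ± 19.5 CPM (SD, n = 4), with a log2 fold change of 0.09 (adjusted *P* = 0.867, edgeR), which was -0.021 with *Xist* level as a covariate and -0.025 in the mice with high *Xist*. The difference between these 2 genes' changes was not tested.

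The other 8 basolateral genes did not pass the test. The median log2 fold change of the 9 genes of that list was -0.07, and among the most abundant per kb were the sodium pump subunits *Atp1b1* (log2 fold change -0.09) and *Fxyd2* (-0.15). Of the 8 WNK cascade partners, 0 were called by edgeR's quasi-likelihood test (1 with an unadjusted *P* under 0.05), with a median of 0.0014. The most abundant of these per kb, *Cul3*, *Cab39*, and *Oxsr1*, had log2 fold changes of -0.09, -0.04, and -0.05, and the smallest *P* belonged to *Wnk2* (-0.47, adjusted *P* = 0.342, edgeR), which was at 7.73 CPM in control mice. Of 11 aldosterone response genes and ENaC regulators, 0 were called (3 with an unadjusted *P* under 0.05), with a median of -0.12. *Prss8*, a protease that activates ENaC, had a log2 fold change of 0.08, *Hsd11b2*, which shields the mineralocorticoid receptor from glucocorticoids, -0.03, and *Furin* -0.12. The glucocorticoid receptor gene *Nr3c1* had the smallest *P* of that list (-0.22, unadjusted *P* = 0.0171, adjusted *P* = 0.226, edgeR). With *Xist* as a covariate, *Cnksr3*, a scaffold for ENaC regulation, was called too (-0.30, adjusted *P* = 0.0412, edgeR).

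Of the other potassium channel genes, 2 of 4 passed the filter and 0 were called or had an unadjusted *P* under 0.05, with log2 fold changes of 0.28 for *Kcnk1* and 0.20 for *Kcnma1*. With *Xist* level as a covariate they were 0.031 and 0.21, and in the mice with high *Xist* 0.045 and 0.36, in the same order. *Kcnmb2* and *Kcnmb4*, subunits of the large-conductance potassium channel, were not tested because their counts were too low. Of the 7 other SLC12 cotransporters, likewise 0 were called (median -0.06), and *Slc12a7* and *Slc12a2*, among the most abundant per kb, had log2 fold changes of 0.02 and -0.13. Of 4 other distal sodium and chloride carriers, 0 were called either (median -0.04). None of these 11 had an unadjusted *P* under 0.05, and DESeq2 and edgeR's exact test called none of the 43 genes but *Kcnj16*. Pendrin (*Slc26a4*) had a log2 fold change of -0.06, *Slc4a9* of -0.011, and *Slc9a2* of -0.07.

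Markers of the segments that hold these genes were present in every kidney. The 7 thick limb markers summed to between 2837 and 5363 CPM, and the most abundant, *Umod*, was at 1648, 2866, 2644, and 3196 CPM in mutant mice 1 to 4 and at 2999, 3169, 2784, and 2362 CPM in control mice 1 to 4. None of the 7 was called (1 with an unadjusted *P* under 0.05; median 0.00033). In the mice with high *Xist*, *Ptger3* was called higher (0.68, adjusted *P* = 0.00142), and with *Xist* level as a covariate, *Ppp1r1b* was called lower (-0.48, adjusted *P* = 0.0151, edgeR). *Ptger3* was also called higher without mutant mouse 1 (0.64, adjusted *P* = 0.00917, edgeR). So it was with the mitochondrial and ribosomal share as a covariate, chosen after seeing the data (0.63, adjusted *P* = 0.0102, edgeR). The sum was lowest in mutant mouse 1, as was *Slc12a1*. The log2 ratio of *Slc12a1* to *Umod* differed by 0.20 between genotypes (*P* = 0.114, exact permutation test, adjusted *P* = 0.343 over the 9 ratios). Of the 3 distal convoluted tubule markers, 0 were called (1 with an unadjusted *P* under 0.05), and the most abundant per kb, *Emx1*, had a log2 fold change of -0.12, the median of that list. *Pvalb*, the calcium-binding protein of the early distal convoluted tubule, was at 5.63 ± 2.45 CPM in mutant and 10.04 ± 1.19 CPM in control mice (SD, n = 4), with a log2 fold change of -0.84 (adjusted *P* = 0.126, edgeR). It passed with DESeq2 (adjusted *P* = 0.0312) and in edgeR without mutant mouse 3 (-1.18, adjusted *P* = 0.00649). The log2 ratio of *Slc12a3* to *Pvalb* was higher in all 4 mutant mice (7.73, 8.05, 7.34, and 8.32) than in all 4 control mice (7.29, 7.13, 6.53, and 6.61). The mean difference was 0.97 (*P* = 0.0286, exact permutation test; adjusted *P* = 0.129 over the 9 ratios), which did not pass the adjusted threshold.

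Of 5 connecting tubule markers, 0 were called (2 with an unadjusted *P* under 0.05). The most abundant per kb, *Klk1*, had a log2 fold change of -0.16, which was also the list's median (2 positive, 3 negative), and the sodium-calcium exchanger gene *Slc8a1* one of 0.56 (SE 0.131, adjusted *P* = 0.0515, edgeR), just outside the threshold. It passed with DESeq2 (adjusted *P* = 0.00433) and, in edgeR, with *Xist* level as a covariate (0.54, adjusted *P* = 0.0198), but not in the mice with high *Xist* (adjusted *P* = 0.205). The calcium channel gene *Trpv5*, at -0.48 (adjusted *P* = 0.278, edgeR), passed in the opposite direction with that covariate (-0.61, adjusted *P* = 0.00401, edgeR). *Slc8a1* was at 668, 801, 812, and 540.5 CPM in mutant mice 1 to 4 and at 479, 516, 496, and 424 CPM in control mice 1 to 4, with no overlap. Of 6 principal cell markers, 5 were tested and 0 called (0 with an unadjusted *P* under 0.05), with 2 positive and 3 negative differences, a median log2 fold change of -0.0041, and the most abundant, *Aqp2*, at 0.25. The ratio of *Scnn1b* to *Aqp2* differed by -0.25 on the log2 scale (*P* = 0.286, exact permutation test, adjusted *P* = 0.643). Macula densa markers (*Nos1*, 0.43) and intercalated cell markers (*Atp6v1g3*, -0.012) had 0 called of 3 and of 4 (1 and 0 with an unadjusted *P* under 0.05), where the values are log2 fold changes of the most abundant gene per kb. The medians of these lists were 0.43, with 3 positive differences, and 0.05, with 2 positive and 2 negative.

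Outside the distal nephron, 3 of 6 proximal tubule markers were called lower, *Slc34a1* (log2 fold change -1.23, adjusted *P* = 0.000217), *Slc5a12* (-1.71, adjusted *P* = 0.000349), and *Slc13a1* (-0.83, adjusted *P* = 0.00465, edgeR). The list's median was -0.66. Of 5 endothelial markers, *Kdr* was called lower (-0.37, adjusted *P* = 0.045, edgeR). That call was lost when any 1 mouse was left out (adjusted *P* from 0.0552 to 0.138, edgeR) and in the mice with high *Xist* (adjusted *P* = 0.0534, edgeR). It was also lost with upper-quartile factors (-0.33, adjusted *P* = 0.0798, edgeR) and with quantile normalization (-0.32, adjusted *P* = 0.0788, limma). The same was so with edgeR's exact test (-0.38, adjusted *P* = 0.174) and the replicate block (-0.37, adjusted *P* = 0.193, edgeR). *Kdr* stayed called with *Xist* level as a covariate (-0.36, adjusted *P* = 0.00845, edgeR). The most abundant endothelial gene per kb, *Cdh5*, had a log2 fold change of -0.04 (list median -0.12). Podocyte (*Podxl*, 0.03), macrophage (*C1qb*, -0.04), fibroblast (*Pdgfrb*, 0.09), and tubular injury (*Havcr1*, 0.20) markers had 0 called (with an unadjusted *P* under 0.05, 1 macrophage and 1 injury marker), the values again being log2 fold changes of the most abundant gene per kb. For macrophages that gene was the only one of 5 with a negative difference, the list's median was 0.22, and the 5 summed to between 87.7 and 92.8 CPM in mutant and between 78.6 and 84.4 CPM in control mice, with no test of the sum. The medians were 0.03 for podocyte (4 of 5 positive), 0.13 for fibroblast (5 of 5 positive), and 0.32 for injury markers (4 of 4 tested positive). *Havcr1* was at 26.3 CPM in mutant mouse 1, and at 14.9 and 9.5 CPM in control mice 3 and 4, the 3 mice with low *Xist*, whereas the 5 with high *Xist* were between 0.65 and 5.05 CPM. The 5 injury markers summed to 44.3, 22.96, 26.2, and 29.1 CPM in mutant mice 1 to 4 and to 24.7, 18.2, 28.0, and 19.8 CPM in control mice 1 to 4, so the sum did not split the mice in that way.

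The labels name whole kidney as the tissue, whereas the protocol text speaks of RNA from liver. The 6 hepatocyte markers summed to between 4.32 and 22.4 CPM per mouse, with 0 counts of *Ahsg* in all 8 mice. Of these, 4 were tested and 0 called (2 with an unadjusted *P* under 0.05), and the most abundant per kb, *Apoa2*, was at 1.95 CPM in mutant and 2.05 CPM in control mice. *Alb* was at 0.66 to 2.57 CPM in mutant and 2.69 to 8.85 CPM in control mice (log2 fold change -2.04, adjusted *P* = 0.0803, edgeR) and was called lower with *Xist* level as a covariate (adjusted *P* = 3.14e-05), in the mice with high *Xist* (adjusted *P* = 0.000529), with DESeq2, and with the exact test of edgeR. *Serpina1a* was called higher in the mice with high *Xist* (2.71, adjusted *P* = 4.21e-06, edgeR) and with the exact test. Proximal tubule markers summed to between 8345 and 15000.0 CPM, so by their markers these are kidney libraries. Of the adrenal cortex markers, *Cyp11b1* had 0 counts in all 8 mice and *Star* was at 6.12 and 7.36 CPM in the 2 genotypes. Adipocyte markers summed to 37.4 CPM in control mouse 3, 6.55 CPM in mutant mouse 4, and under 1 CPM in the other mice. Control mouse 3 was also among the low mice for *Slc12a3* and *Sgk1*, and the part of these markers in those values was not tested.

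*Sgk1* is induced by aldosterone and by glucocorticoids, and several of the listed genes are known to be induced by the same hormones or to cycle with the time of day. Control mice 1 and 2 and mutant mouse 4, the 3 mice with the most *Sgk1*, lay above the other 5 in 7 of the 10 clock genes (*Dbp*, *Tef*, *Nr1d1*, *Nr1d2*, *Per2*, *Per3*, and *Ciart*), against 5.15% of all genes tested. They lay below the other 5 in 2 clock genes, *Arntl* and *Npas2*, against 5.55%. Of the 11 aldosterone response genes and ENaC regulators, 4 had the first order (*Per1*, *Usp2*, *Nr3c2*, and *St14*) and 0 the second, and the first order was also seen in 3 of 7 thick limb and 2 of 5 principal cell markers. It was seen in 6 of the 41 tested genes of the pathway lists together. Of the 10 distal transport genes, 1 had the first order, *Sgk1* itself, by which these mice were set apart. These counts describe mice set apart by their *Sgk1* level, with no test. The 3 mice with the most *Sgk1* all had high *Xist*, and all mice with low *Xist* were among the other 5. The parts of the 2 splits in these counts were not told apart. *Per1* was at 169, 162, and 146 CPM in control mice 1 and 2 and mutant mouse 4, against values from 36.3 to 82.7 CPM in the other 5. *Usp2* was at 220.4, 240.1, and 202 CPM in those 3 mice and at 112 to 150.0 CPM in the others. *Dbp*, a clock output gene, was at 137, 129, and 75.5 CPM there and at 23.7 to 68.8 CPM elsewhere. *Arntl*, which encodes the clock activator BMAL1, went the other way, at 1.32, 2.35, and 2.33 CPM in the 3 mice and at 5.57 to 11.5 CPM in the others. *Tsc22d3* (GILZ) did not have this order, at 101, 93.6, and 72.8 CPM in the 3 mice but 74.2 CPM in control mouse 3, above the last of them. The labels give no time of day, and its part in these values was not tested. None of the 10 clock genes was called between genotypes (2 with an unadjusted *P* under 0.05), with a median log2 fold change of -0.27, nor was any of the 6 immediate early genes (1 with an unadjusted *P* under 0.05; median 0.49). When *Xist* level was a covariate, *Tef* (-0.37, adjusted *P* = 0.012), *Ciart* (-1.33, adjusted *P* = 0.0239), and the immediate early gene *Ier2* (-0.49, adjusted *P* = 0.0339) were called lower, and in the mice with high *Xist*, *Tef* (-0.43, adjusted *P* = 0.0264) and *Per3* (-0.42, adjusted *P* = 0.0132, edgeR).

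**Figure D3:**
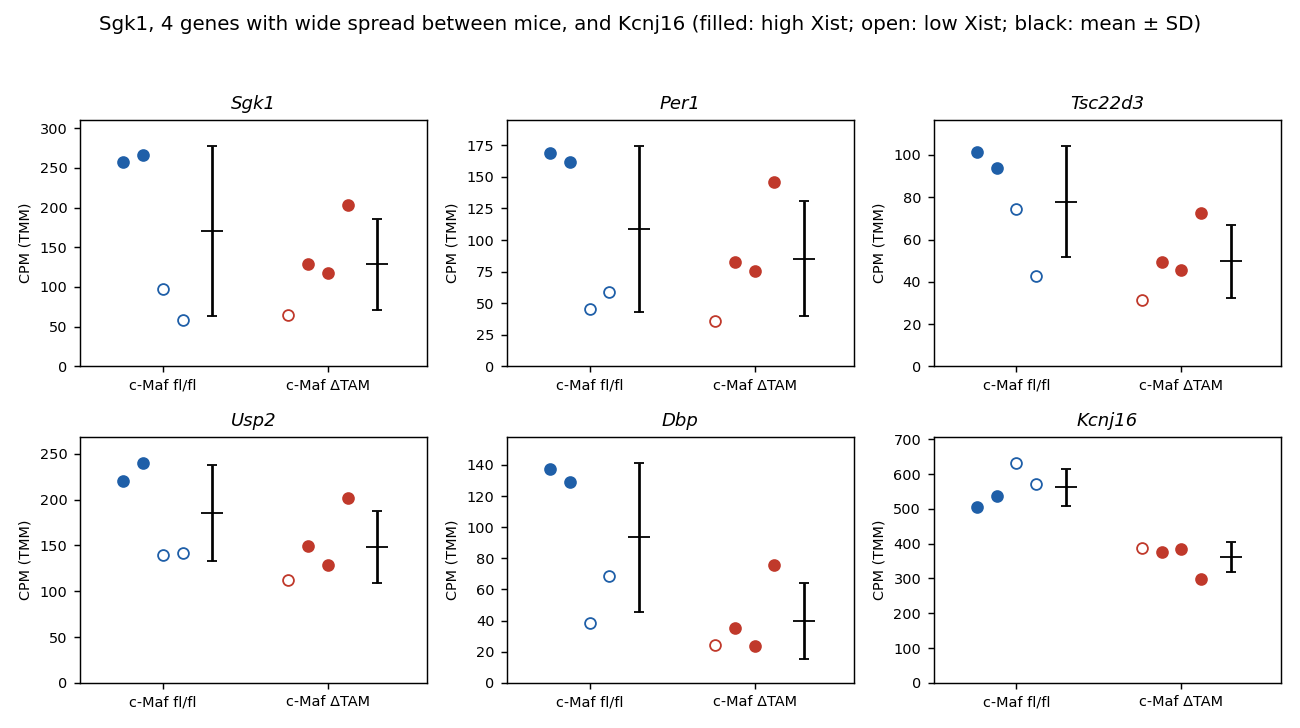
Level in each kidney, in CPM scaled by the TMM method, of *Sgk1*, of *Per1*, *Tsc22d3*, *Usp2*, and *Dbp*, and of *Kcnj16*, with control mice 1 to 4 in blue and mutant mice 1 to 4 in red from left to right, open circles for the 3 mice with low *Xist*, and black bars for the mean ± SD. *Sgk1* ranges from 58.8 to 266 CPM and overlaps between genotypes, whereas *Kcnj16* does not overlap.

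RefSeq promoters of GRCm38.p6, 250 bases before to 50 after a start site, were at hand for 9 of the 10 genes, with 6 start sites for *Sgk1*; *Scnn1a* had no entry. One short form of the Maf recognition element, TGCTGAC on either strand, was in 0 of these 14 windows, and in 4.67% of all 32851 windows. Other forms of the element and sites outside these windows were not searched for. The 0 therefore does not show that Maf sites are absent from these genes. The E-box CACGTG was in 1 of the 14 windows (7.14%), one of *Sgk1*, and in 7.15% of all windows (2349 windows). The same *Sgk1* window, at chr10:21993640-21993939 on the plus strand, is shown because it also holds a full palindrome of the glucocorticoid and mineralocorticoid receptor element, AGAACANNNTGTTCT, which 3 of all windows hold (0.00913%) and which was looked for after this sequence had been read. Capitals mark the E-box, whose first base is 246 bases before the start site, and the receptor element, whose first base is 189 bases before it. A match of letters does not show that a factor binds there.
*Sgk1* promoter: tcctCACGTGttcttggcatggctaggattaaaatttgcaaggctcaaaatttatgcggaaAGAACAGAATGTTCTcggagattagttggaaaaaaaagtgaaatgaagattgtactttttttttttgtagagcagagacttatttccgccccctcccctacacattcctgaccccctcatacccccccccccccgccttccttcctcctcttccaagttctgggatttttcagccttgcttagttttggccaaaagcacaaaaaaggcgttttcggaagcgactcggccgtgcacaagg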

How the data were processed

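Whole-kidney RNA was sequenced from 4 *c-Maf* ΔTAM and 4 *c-Maf fl/fl* mice. The deposited table holds raw counts per gene; per its header, featureCounts 2.0.1 made them from annotation release 102 of GRCm38, without strand and with each read of a pair counted; the submitters' notes name Subread 2.0.2 and edgeR 3.36.0. The study's methods describe mapping to mm10 in the CLC Genomics Workbench; whether the deposited counts were made from those alignments is not given in the sources used here. The table's own counts were fitted with edgeR 4.0.16 in R 4.3.3 (TMM factors, low-count filter by genotype, quasi-likelihood test, Benjamini-Hochberg adjustment over all 20149 genes), and the procedure was checked on simulated data. CPM were scaled by TMM, and levels between genes were divided by exon length in kb. The common biological coefficient of variation was 0.203. No 2 libraries of a genotype agreed within counting noise (chi-square per degree of freedom from 5.52 to 114). Ratios were log2 ratios of counts plus 1 in a mouse, compared by two-sided exact permutation.

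The 10 genes and the lists (WNK partners, basolateral exit, aldosterone response, potassium channels, SLC12 cotransporters, other carriers, markers of cell types, clock and immediate early genes) were chosen with earlier results of these data known. Named genes were the 10 themselves, list genes that passed the test, the most abundant 3 per kb of each pathway list and the most abundant of each marker list, and the gene with the smallest *P* of each pathway list. *Pvalb*, *Slc8a1*, *Cnksr3*, *Kcnj10* as the partner of *Kcnj16*, the genes set beside *Sgk1*, and list genes that passed only in an alternative were chosen after their values were seen. Some genes that the rule takes are not reported here. Alternatives were RLE, upper-quartile, and quantile scaling (limma 3.58.1), edgeR's exact test, DESeq2 1.42.0, looser and stricter filters, a replicate block, *Xist* level as a covariate, the mice with high *Xist* only, removal of mitochondrial and ribosomal RNA genes, each mouse left out, other pseudocounts for ratios, and, chosen after seeing the data, the mitochondrial and ribosomal share as a covariate. Promoter sequences are from RefSeq.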

Additional observations from a re-analysis of the deposited data

How the results depend on the processing

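The 20 alternatives called 0 of the 10 genes, and *Wnk1* came nearest (adjusted *P* = 0.195 with *Xist* level as a covariate, edgeR). Most differences were near zero, so their signs changed easily; where they did, the cause was not tested. The number of genes called was 436, against 886 with DESeq2, 129 with the block, 1441 with *Xist* level as a covariate, 789 among the mice with high *Xist*, 871 with the mitochondrial share as a covariate, and 239 to 452 with 1 mouse left out (256 without mutant mouse 2, 239 without mutant mouse 3, 285 without control mouse 3). Of the pathway genes, 0 were called lower with the block and 2 with *Xist* level as a covariate. Mice of the same number had *r* over genes of -0.37, 0.15, -0.11, and -0.33 for numbers 1 to 4, which gave no clear sign of pairing. These values cannot exclude pairing, as they also followed the *Xist* split. Mutant mouse 1 had *r* of 0.33 and 0.38 with control mice 3 and 4, and of -0.37 and -0.39 with control mice 1 and 2. The block also ended the calls of *Maf*, *Kcnj16*, *Slc13a1* (adjusted *P* = 0.0654, edgeR), and *Kdr*. With 4 mice a genotype, differences as small as most of these cannot be told from zero.

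Differences that changed sign are given by setting. With replicate numbers as a block, the log2 difference was 0.021 for *Scnn1b*, 0.0032 for *Hsd11b2*, 0.021 for *Atp6v1g3* and -0.66 for *Havcr1*. With *Xist* level as a covariate, the log2 difference was -0.051 for *Slc12a1*, -0.062 for *Slc12a3*, -0.044 for *Scnn1g*, -0.027 for *Kcnj1*, -0.013 for *Wnk4*, -0.012 for *Klhl3*, 0.049 for *Atp6v1g3*, -0.027 for *Podxl*, -0.021 for *Kcnj10* and -0.035 for *Nr3c2*. In the mice with high *Xist* only, the log2 difference was -0.12 for *Slc12a3*, -0.19 for *Scnn1g*, -0.010 for *Kcnj1*, -0.019 for *Wnk4*, -0.049 for *Klhl3*, 0.0073 for *Furin*, 0.044 for *Slc12a2*, 0.056 for *Atp6v1g3*, -0.021 for *Podxl*, -0.071 for *Pdgfrb*, 0.079 for *Apoa2*, -0.078 for *Havcr1*, -0.025 for *Kcnj10*, -0.17 for *Nr3c2*, -0.13 for *Slc12a3*/*Slc12a1* and -0.024 for *Kcnj1*/*Slc12a1*. With the mitochondrial and ribosomal share as a covariate, chosen after seeing the data, the log2 difference was 0.11 for *Scnn1b*, 0.18 for *Sgk1*, 0.0069 for *Atp1b1*, 0.23 for *Hsd11b2*, 0.17 for *Slc26a4*, 0.12 for *Slc4a9*, 0.011 for *Slc9a2*, 0.069 for *Umod*, 0.032 for *Emx1*, 0.11 for *C1qb*, 0.11 for *Apoa2*, -1.71 for *Havcr1*, 0.10 for *Per1* and 0.060 for *St14*. With upper-quartile factors, the log2 difference was 0.037 for *Scnn1b*, 0.0084 for *Cab39*, 0.013 for *Hsd11b2*, 0.030 for *Slc4a9*, 0.036 for *Atp6v1g3* and 0.0045 for *Cdh5*. With quantile normalization and limma, the log2 difference was 0.077 for *Scnn1b*, 0.019 for *Cab39*, 0.0022 for *Oxsr1*, 0.10 for *Atp1b1*, 0.072 for *Fxyd2*, 0.070 for *Hsd11b2*, 0.010 for *Furin*, 0.014 for *Slc26a4*, 0.029 for *Slc4a9*, 0.042 for *Umod*, 0.049 for *Atp6v1g3*, 0.013 for *Cdh5* and -0.65 for *Havcr1*. With at least 10 counts required in every mouse, the log2 difference was 0.0013 for *Scnn1b*. With 1 mouse left out at a time, it ranged from -0.016 to 0.15 for *Slc12a1*, -0.053 to 0.21 for *Slc12a3*, -0.12 to 0.11 for *Scnn1b*, -0.091 to 0.12 for *Scnn1g*, -0.0033 to 0.18 for *Kcnj1*, -0.010 to 0.11 for *Wnk4*, -0.018 to 0.14 for *Klhl3*, -0.057 to 0.00080 for *Cab39*, -0.085 to 0.0083 for *Oxsr1*, -0.16 to 0.15 for *Hsd11b2*, -0.0064 to 0.052 for *Slc12a7*, -0.19 to 0.075 for *Slc26a4*, -0.091 to 0.10 for *Slc4a9* and -0.11 to 0.037 for *Slc9a2*, and from -0.25 to 0.040 for *Umod*, -0.12 to 0.22 for *Atp6v1g3*, -0.020 to 0.091 for *Podxl*, -0.10 to 0.00070 for *Cdh5*, -0.12 to 0.087 for *C1qb*, -0.34 to 0.16 for *Apoa2*, -1.56 to 0.80 for *Havcr1*, -0.0025 to 0.21 for *Kcnj10*, -0.055 to 0.15 for *Nr3c2*, -0.047 to 0.15 for *Slc12a3*/*Slc12a1*, -0.21 to 0.0050 for *Scnn1g*/*Scnn1a*, -0.039 to 0.10 for *Scnn1g*/*Scnn1b* and -0.023 to 0.11 for *Kcnj1*/*Slc12a1*. No other difference recomputed in this way changed sign.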
